A study of Mus musculus with 16 samples.

Results

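DNA methylation of the mouse hippocampus is placed by the Dnmt enzymes, oxidised by the Tet enzymes and read by the Mbd proteins. The genes described here are Dnmt1, Dnmt3a, Dnmt3b, Tet1, Tet2, Tet3, Mbd1, Mbd2 and Mbd3, 9 of the 18287 gene names in the transcript table. They were taken as every row that carries one of these names, which gave 40 of 80137 transcript rows. RNA-seq had been made from the hippocampus of 16 wild type male C57BL/6 mice, 4 in each of 4 groups and 1 library per mouse, from the combined left and right hippocampi of animals 3 months old. The homecage group (HC) stayed in its cages and was not handled. The control group (Ctrl) was handled and put in the shuttle box without shocks on the first day, and received a test of 30 escapable foot shocks of 0.4 mA on the next. The other mice had also received 180 inescapable foot shocks of 0.4 mA the day before that test, and their escape behaviour in the test divided them into a group that showed learned helplessness (LH) and a group that did not (NLH). Mice that were tested were killed 3 h later. LH and NLH were thus defined by an outcome and not by assignment. Values are FPKM, the number of sequenced fragments scaled by transcript length and library size. The FPKM of the rows of a gene name were added to give its gene sum.

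Dnmt1 copies existing CpG methylation onto new DNA strands, while Dnmt3a and Dnmt3b can methylate DNA that carried none, and Dnmt3a is known as the main such enzyme of mature neurons. Tet1, Tet2 and Tet3 oxidise methylated cytosine, a step towards its removal, and the oxidised base is abundant in brain. Mbd1 and Mbd2 bind methylated CpG through a shared methyl-CpG-binding domain, and Mbd2 and Mbd3 are alternative subunits of the NuRD complex, which joins chromatin remodelling to histone deacetylation. Many of these genes use several start sites or exons, so each gene sum can hide rows that encode different proteins.

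Libraries LH 3 and LH 4 stood apart from the rest. They had 10846 and 15504 transcripts at 0, against 4872 to 7352 in the other 14 mice, and 7 and 6 of the 40 rows at 0 against 1 to 5 elsewhere. The median SD of log2 FPKM over 22595 transcripts was 0.428 in LH and 0.178 to 0.246 in the other groups. FPKM steps of low single-transcript loci put the depth at 20130000 fragments in LH 4, 24740000 in LH 3, 23820000 in LH 2 and 26960000 to 38090000 in the other mice. All 7 excitatory neuron markers were detected with a summed level of 419.9 to 665.8 FPKM, against 5.27 to 15.2 for 4 striatal genes. These sums are of different genes, so they do not test the hippocampal label. The 5 choroid plexus markers varied from 2.43 to 85.5 FPKM among mice, also within groups, and their part in the results below was not tested. In tissue, fewer cells of a type and less RNA per cell cannot be told apart.

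By the GENCODE annotation of the GRCm38 build, 19 of the 40 rows were complete coding transcripts, 7 were incomplete coding transcripts, 10 were retained introns, 3 were processed transcripts and 1 was a target of nonsense-mediated decay. Several rows share most of their bases with other rows of their gene, which limits how well their levels can be separated. In others most bases are their own, such as 3780 of 4014 in ENSMUST00000173700.1 of Dnmt3a and 5795 of 10904 in ENSMUST00000089622.10 of Tet3. The 3 rows of Dnmt1 are 5248 to 5870 bases long, and 275, 156 and 778 of their bases lie in no other row. Row ENSMUST00000050826.13 of Tet1 is 13986 bases long and has only 7 bases of its own. Row ENSMUST00000092295.9 of Mbd3 has 96 bases of its own and row ENSMUST00000105349.7 has 0, so only a splice junction marks the latter.

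The DNA before a start site can itself be a target of these enzymes, through its CG letters. The 250 bases upstream of 4 starts of Dnmt1 and Dnmt3a are shown because RefSeq gave several start windows for these genes alone among the 9, and because no exon of the 40 rows lies in these 4. They come from RefSeq promoter windows on GRCm38.p6, are written 5′ to 3′ along the gene and carry every CG in capitals. CG reads the same on both strands, and the median over 32851 such windows of all genes was 6, with 7.87% holding none.
Dnmt1, start of ENSMUST00000004202.15, chr9:20952980-20953229, minus strand: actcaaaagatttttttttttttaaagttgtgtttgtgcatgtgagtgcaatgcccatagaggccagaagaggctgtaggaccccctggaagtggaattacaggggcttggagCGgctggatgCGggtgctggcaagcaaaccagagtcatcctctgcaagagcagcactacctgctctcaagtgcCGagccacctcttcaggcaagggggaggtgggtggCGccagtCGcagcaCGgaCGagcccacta
Dnmt1, start of ENSMUST00000177754.7, chr9:20959889-20960138, minus strand: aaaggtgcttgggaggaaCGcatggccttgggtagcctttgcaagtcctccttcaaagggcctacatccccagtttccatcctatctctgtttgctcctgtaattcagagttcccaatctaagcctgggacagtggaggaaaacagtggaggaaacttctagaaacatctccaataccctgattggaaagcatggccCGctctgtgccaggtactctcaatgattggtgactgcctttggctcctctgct
Dnmt3a, RefSeq start nearest to ENSMUST00000020991.14, chr12:3806730-3806979, plus strand: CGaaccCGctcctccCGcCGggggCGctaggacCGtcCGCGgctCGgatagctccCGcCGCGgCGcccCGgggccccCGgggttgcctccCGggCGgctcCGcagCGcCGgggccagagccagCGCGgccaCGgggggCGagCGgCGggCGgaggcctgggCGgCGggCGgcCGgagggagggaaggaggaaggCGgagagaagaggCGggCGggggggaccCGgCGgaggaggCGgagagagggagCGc
Dnmt3a, start of ENSMUST00000111186.7, chr12:3891494-3891743, plus strand: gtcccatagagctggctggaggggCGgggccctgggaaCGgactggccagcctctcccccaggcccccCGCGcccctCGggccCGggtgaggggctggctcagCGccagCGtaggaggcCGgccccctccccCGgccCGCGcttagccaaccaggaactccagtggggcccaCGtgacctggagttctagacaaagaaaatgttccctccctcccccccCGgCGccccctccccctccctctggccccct
The printed Dnmt1 windows held 7 and 2 CG, counts that 46.3% and 81.2% of all windows reach or pass. A further Dnmt1 window, before the start of ENSMUST00000178110.1, held 26, reached by 9.59%, and is not printed because 166 of its bases lie in an exon of ENSMUST00000004202.15. The upstream Dnmt3a window held 38, reached by 1.88% of windows, a further one beside it held 40, reached by 1.31%, and the window of the shorter Dnmt3a row held 15, reached by 27.3%.

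Coding bases that separate the Mbd3 rows are shown because their levels differed most between libraries. They were read from GENCODE vM21 transcripts. In the first, capitals mark the 14 coding bases of exon 1 that ENSMUST00000105349.7 also carries, and the lower-case letters are the 96 bases that it skips. The second holds the 38 coding bases with which ENSMUST00000105347.1 starts, a row whose transcript begins 3831 bases downstream of that of ENSMUST00000092295.9.
Mbd3 ENSMUST00000092295.9, chr10:80399122-80399231, minus strand: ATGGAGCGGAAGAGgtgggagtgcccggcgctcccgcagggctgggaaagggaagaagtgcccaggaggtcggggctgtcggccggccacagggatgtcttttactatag
Mbd3 ENSMUST00000105347.1, chr10:80395596-80395633, minus strand: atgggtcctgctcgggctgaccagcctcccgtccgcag
The 96 skipped bases are 32 codons, and the rows encode 285, 253 and 261 residues in the order ENSMUST00000092295.9, ENSMUST00000105349.7 and ENSMUST00000105347.1. Exon 1 of this gene encodes the start of the methyl-CpG-binding domain.

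FPKM is scaled by transcript length, so gene sums can be ranked, here over the named rows. Over the 16 mice Dnmt3a had the highest mean at 6.45 FPKM, followed by Mbd3 at 6.03, Mbd2 at 5.57, Tet3 at 3.66, Dnmt1 at 3.26, Tet2 at 2.06, Tet1 at 2.00, Mbd1 at 0.548 and Dnmt3b at 0.132. 3 neighbour pairs in this order were not separated across mice, since Dnmt3a exceeded Mbd3 in 11 of 16 mice, Mbd3 exceeded Mbd2 in 11 and Tet2 exceeded Tet1 in 9. Mbd2 was above Tet3, Dnmt1 above Tet2 and Tet1 above Mbd1 in all 16, Tet3 was above Dnmt1 in 15, and Mbd1 was above Dnmt3b in 14. With all other rows of each assembled locus added, nearly all of them unnamed, the order changed, to means of 9.08 FPKM for Mbd3, 6.88 for Dnmt3a, 6.31 for Mbd2, 5.15 for Tet2, 3.88 for Dnmt1, 3.66 for Tet3, 3.50 for Mbd1, whose locus also holds a row named Cfap53, and 2.00 for Tet1. By named rows Dnmt3a lay at the 78.3rd percentile of all gene names by mean level and Dnmt3b at the 18.7th.

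**Figure D1:**
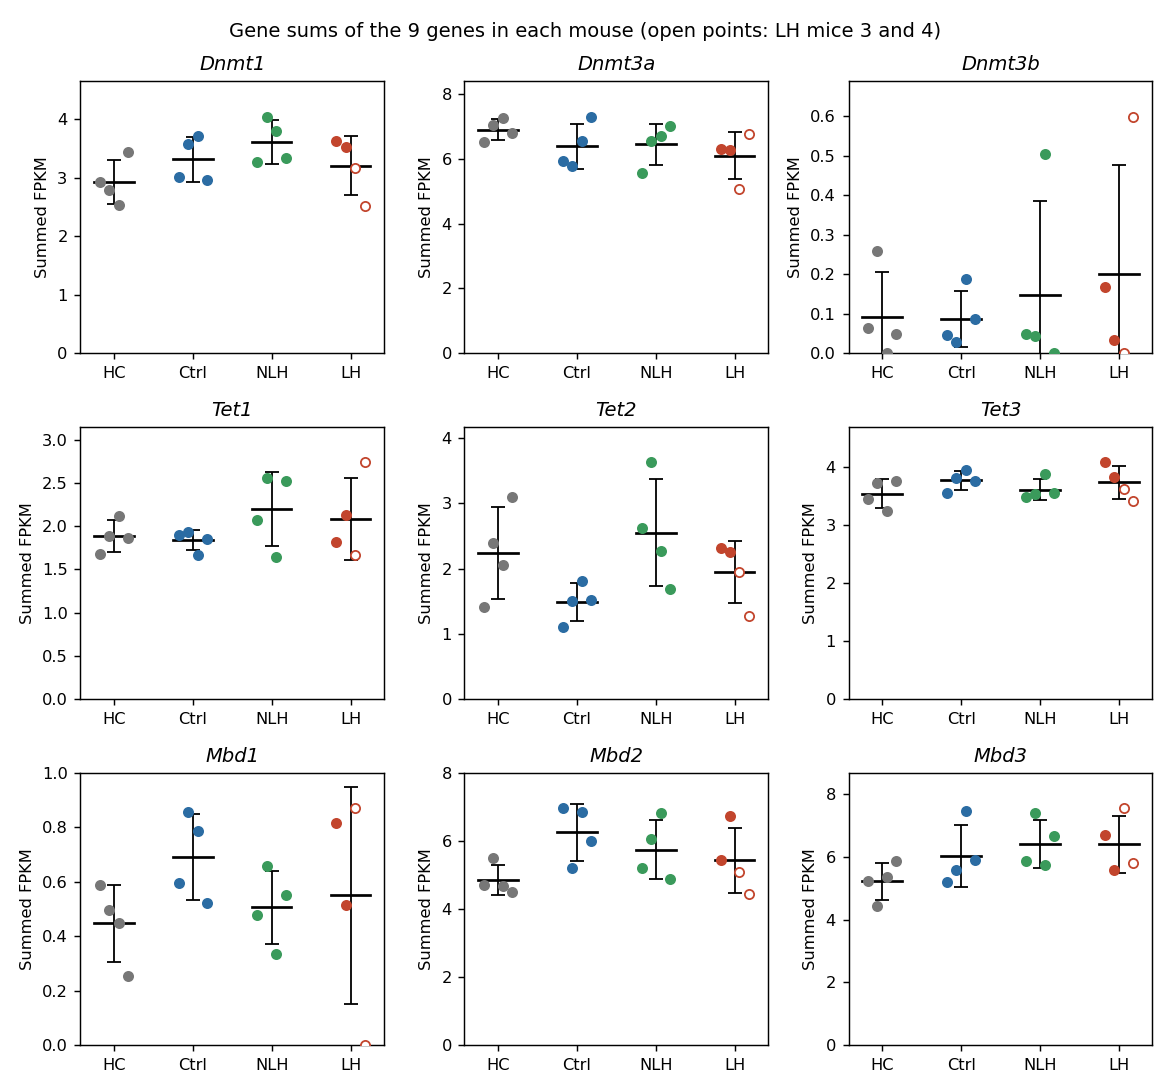
Summed FPKM (vertical axes, from 0) of the 9 genes in each mouse by group (horizontal axes), with the mean and SD of 4 mice as bars and LH mice 3 and 4 as open points. The groups overlap for every gene. Tet2 is lowest on average in Ctrl (1.48 FPKM) and Mbd2 in HC (4.85 FPKM), while Mbd1 is near 0 in LH 4.

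The 4 comparisons ask what handling, the shuttle box and the test session did together (Ctrl vs. HC), what differed in shocked mice that escaped (NLH vs. Ctrl) or did not (LH vs. Ctrl), and what separated these outcomes (LH vs. NLH). With limma on log2(summed FPKM + 0.1) over all gene names and Benjamini-Hochberg adjustment, 0 of the 9 genes passed an adjusted p of 0.05 in any of them. Among all genes 0%, 0.00547%, 0% and 0.0109% passed, in the order just given. At an unadjusted p of 0.05, 1 of 9 passed in Ctrl vs. HC (Mbd2, background 2.7% of genes), 1 of 9 in NLH vs. Ctrl (Tet2, background 5.59%), and 0 of 9 in either LH comparison, where 11.5% and 7.54% of all genes passed. In none of the 4 comparisons did the groups of 4 stop overlapping for any of the 9 genes, against 5.24%, 6.04%, 5.59% and 2.11% of all genes. A limma F test over the 4 groups was passed by 0 of the 9 genes, adjusted or not, where 0.0766% and 9.96% of all genes passed, and its smallest adjusted p among them was that of Tet2, 0.578. Median log2 differences over the 9 genes were 0.09, 0.09, -0.01 and -0.08, against 0.02, 0.06, 0 and -0.06 over all genes.

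At the level of rows, 0 of the 40 passed the adjusted limma test in any comparison, where 0.00374%, 0.0125%, 0.0462% and 0.0412% of all transcripts passed. Unadjusted, limma called 2, 2, 3 and 2 of the 40 rows against 3.45%, 5.12%, 10.7% and 8.72% of all transcripts. The unadjusted two-sample test of the study's methods called 2, 2, 1 and 2 of the 40, against 6.68%, 7.2%, 7.69% and 4.47%. Groups did not overlap for 0, 0, 2 and 3 rows, against 4.48%, 5.02%, 5.85% and 3.18%. Of 36 shares of a row in its gene sum, 0 passed adjusted (0%, 0.0155%, 0.0222% and 0.0422% of all shares) and 1, 0, 4 and 3 passed unadjusted (3.58%, 5.03%, 10.8% and 9.38%), while 0, 0, 3 and 3 did not overlap (3.98%, 5.04%, 6.11% and 4.04%). None of the counts was more than 2 above the number that its background share would give. Of the 3 rows in LH vs. NLH, ENSMUST00000197118.4 of Tet2 was below 0.001 FPKM in all 8 mice but LH 3, and ENSMUST00000114946.3 of Mbd2 was below it in all LH mice and in NLH 1, so only ENSMUST00000128555.1 was apart in measured levels. The same holds for their shares, and values below 0.001 also enter the background.

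**Figure D2:**
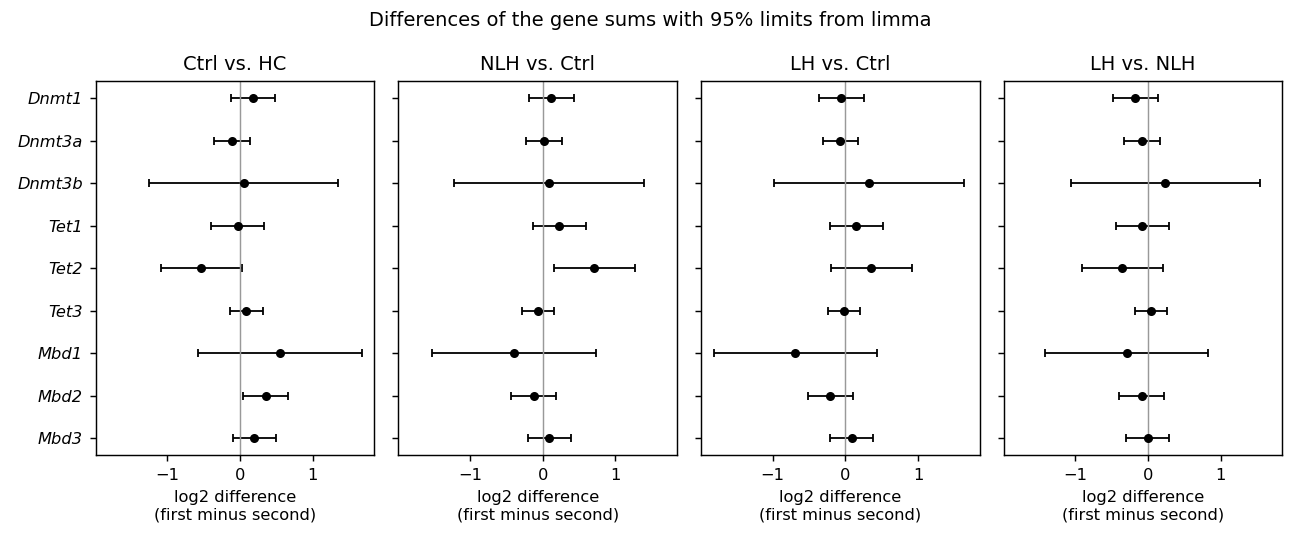
Log2 difference of the gene sums (horizontal axis, first group minus second) for the 9 genes (vertical axis) in the 4 comparisons, as points with 95% limits from limma. The limits leave out 0 only for Mbd2 in Ctrl vs. HC and Tet2 in NLH vs. Ctrl, and are widest for Dnmt3b and Mbd1.

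Among the writers, Dnmt1 had gene sums of 2.93, 2.79, 2.53 and 3.43 FPKM in HC, 3.01, 3.58, 3.70 and 2.97 in Ctrl, 3.27, 4.04, 3.79 and 3.34 in NLH, with 3.62, 3.52, 3.17 and 2.51 in LH. All 4 groups overlapped, and the highest mouse was in NLH and the lowest in LH. The log2 difference was 0.18 in Ctrl vs. HC (SE 0.14, 95% limits -0.13 to 0.49), 0.12 in NLH vs. Ctrl (-0.19 to 0.43), -0.05 in LH vs. Ctrl (-0.36 to 0.25) and -0.17 in LH vs. NLH (-0.48 to 0.13), with limma. These limits leave room for changes of either sign.

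The Dnmt1 rows start at separate sites and encode 1620 residues (ENSMUST00000004202.15) or 1501 residues (ENSMUST00000177754.7 and ENSMUST00000178110.1). The longer form was the largest row in 14 of 16 mice. Its share of the Dnmt1 gene sum was 48.1% ± 17.4 in HC, 59.9% ± 14.4 in Ctrl, 68.5% ± 10.3 in NLH, with 80.2% ± 18.9 in LH (SD, n = 4). By mouse it was 55.1, 53.2, 22.5 and 61.5% in HC, 76.5, 62.5, 59.1 and 41.6% in Ctrl, 67.7, 65.5, 82.7 and 58.1% in NLH, with 72.8, 90.7 and 57.4% in LH 1 to LH 3. Neighbouring groups overlapped throughout, and LH vs. Ctrl had an adjusted limma p of 0.462 and an exact permutation p of 0.2 for the share. Its arcsine difference of 0.29 passed unadjusted only without LH 3 (0.39), LH 1 (0.34) or Ctrl 1 (0.35) among the single mice left out. With all mice it passed unadjusted as a log2 ratio to the other Dnmt1 rows (1.77, adjusted p = 0.421). In LH 4 it made up the whole sum, since the 1501-residue rows were below 0.001 FPKM, and without LH 4 the difference was 0.16 (adjusted p = 0.683). ENSMUST00000177754.7, whose start window holds only 2 CG, had 1.07 ± 0.365 FPKM in HC, 1.03 ± 0.588 in Ctrl, 0.815 ± 0.483 in NLH, with 0.494 ± 0.463 in LH.

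Dnmt3a, with the highest mean over named rows, had 6.50, 7.03, 7.25 and 6.78 FPKM in HC, 5.93, 5.78, 6.53 and 7.30 in Ctrl, 5.54, 6.55, 6.70 and 6.99 in NLH, with 6.28, 6.28, 5.07 and 6.75 in LH. HC mice lay in a narrow range inside that of Ctrl, and the lowest value was that of LH 3. The log2 differences were -0.11 in Ctrl vs. HC (95% limits -0.36 to 0.13), 0.01 in NLH vs. Ctrl (-0.23 to 0.26), -0.07 in LH vs. Ctrl (-0.31 to 0.18) and -0.08 in LH vs. NLH (-0.33 to 0.16), the narrowest limits of the family beside Tet3.

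Both long Dnmt3a rows, ENSMUST00000020991.14 and ENSMUST00000174817.7, encode 908 residues from neighbouring starts (positions 3807030 and 3807160 of chromosome 12) beside the CG-rich window, and together with the short row made up 57.8% to 62.0% of the gene sum by group. ENSMUST00000174817.7 had 1.59 ± 0.267 FPKM in Ctrl and 2.02 ± 0.492 in NLH (log2 difference 0.30, adjusted p = 1). The short row ENSMUST00000111186.7, which encodes 689 residues from a start 84714 bases downstream, was nearly silent. It stood at 0.220 FPKM in HC 2 and at most 0.00119 in every other mouse. Retained-intron rows held 32.1% ± 3.52 of the Dnmt3a sum in HC, 34.4% ± 4.57 in Ctrl, 32.5% ± 3.05 in NLH, with 28.7% ± 7.62 in LH. These rows hold no full coding sequence. ENSMUST00000173700.1, the longest of them at 4014 bases, had 1.04 ± 0.179 FPKM in Ctrl and 0.841 ± 0.222 in LH (adjusted p = 0.610).

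Dnmt3b was near the detection limit, with a median of 4.4 estimated fragments per mouse. Its gene sum was highest at 0.503 FPKM in NLH 3 and at 0.599 in LH 4, and 3 of 16 mice were below 0.001 FPKM. The 776-residue coding row ENSMUST00000103151.7 never exceeded 0.120 FPKM. No difference was detectable at this depth, the limits in LH vs. Ctrl running from -0.98 to 1.63 on the log2 scale.

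Among the erasers, Tet3 was the steadiest gene of the family, with 3.54 ± 0.248 FPKM in HC, 3.77 ± 0.167 in Ctrl, 3.61 ± 0.175 in NLH, with 3.73 ± 0.286 in LH. Its lowest and highest mice were at 3.24 (HC 3) and 4.08 FPKM (LH 1). The log2 differences were 0.09, -0.06, -0.01 and 0.05 in the 4 comparisons, and the limits in LH vs. NLH were -0.18 to 0.27. The row ENSMUST00000089622.10, which encodes 1668 residues, was the larger of its 2 rows in all 16 mice. It measured 2.97, 3.16, 2.88 and 3.12 FPKM in HC and 3.16, 3.27, 3.22 and 3.35 in Ctrl, so that the Ctrl mice reached or passed nearly every HC mouse. It was 1 of the 2 rows called by the unadjusted test of the methods in Ctrl vs. HC (log2 difference 0.10, limma adjusted p = 1, exact permutation p = 0.0571). ENSMUST00000186548.6, which encodes 1803 residues from a start 14717 bases upstream, had 0.505 FPKM on average.

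Tet1 gene sums were 1.67, 1.88, 2.12 and 1.86 FPKM in HC, 1.90, 1.94, 1.67 and 1.86 in Ctrl, 2.07, 2.55, 1.65 and 2.52 in NLH, with 1.82, 2.13, 1.66 and 2.74 in LH. NLH and LH reached higher values than HC and Ctrl, but each also had a mouse as low as theirs. The log2 difference was 0.23 in NLH vs. Ctrl (SE 0.17, 95% limits -0.14 to 0.59, adjusted p = 0.982) and 0.15 in LH vs. Ctrl (-0.22 to 0.52).

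The 2 full Tet1 rows start 19104 bases apart and encode 2007 residues (ENSMUST00000050826.13) and 2039 residues (ENSMUST00000174189.1). The first had 0.448, 0.543, 0.275 and 0.175 FPKM in HC and 0.654, 0.622, 0.915 and 0.407 in Ctrl, with 1 Ctrl mouse inside the HC range. It was also at or above the HC maximum in 3 NLH mice (0.488, 0.782, 0.908 and 0.602) and 3 LH mice (0.513, 0.766, 0.708 and 0.817). Its mean was 0.360 ± 0.166 in HC and 0.649 ± 0.208 in Ctrl, and its share of the gene sum 19.5% ± 9.76 and 35.8% ± 13.8 (SD, n = 4). The log2 difference of the level was 0.74 (SE 0.31, limma adjusted p = 1, exact permutation p = 0.0857), and the share also had an adjusted p of 1 (exact permutation p = 0.114). It was the 1 share called unadjusted in this comparison (arcsine difference 0.19), and the call was lost without HC 3 (0.16), HC 4 (0.14), Ctrl 1 (0.19), Ctrl 2 (0.20) or Ctrl 3 (0.12), with no filter on the gene sum and in a fit of the 2 groups alone. The second row had 0.563 ± 0.162 FPKM in HC and 0.330 ± 0.209 in Ctrl (adjusted p = 1). Both together held 49.6% ± 8.17 of the Tet1 sum in HC and 53.4% ± 4.53 in Ctrl. The second highest Tet1 row, the incomplete coding transcript ENSMUST00000174121.1 of 1197 bases, had 0.434 ± 0.0916 FPKM in HC, 0.423 ± 0.0827 in Ctrl, 0.398 ± 0.235 in NLH, with 0.526 ± 0.155 in LH. Its share of the Tet1 sum was 22.9% ± 3.80 in Ctrl, 17.0% ± 7.98 in NLH and 24.96% ± 3.04 in LH, with overlapping groups, and was called in no comparison (adjusted p = 0.591 in LH vs. NLH, exact permutation p = 0.114). Without NLH 2 it passed unadjusted in NLH vs. Ctrl (arcsine difference -0.12, adjusted p = 1) and in LH vs. NLH (0.15, adjusted p = 0.562). As the 2007-residue row has 7 bases of its own, junctions and coverage carry the division between it and the 2039-residue row. Its level was no longer called unadjusted without HC 3 (log2 difference 0.66), HC 4 (0.51), Ctrl 1 (0.72), Ctrl 2 (0.74) or Ctrl 3 (0.58).

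**Figure D3:**
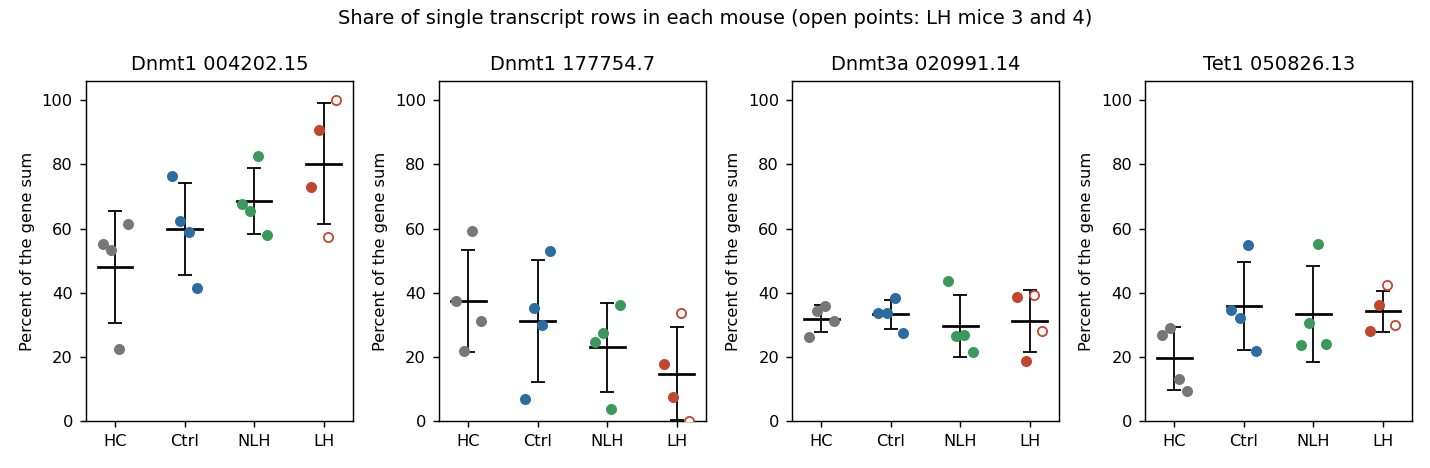
Share of 4 transcript rows of Dnmt1, Dnmt3a and Tet1 in the sum of their gene (vertical axes, percent) in each mouse by group, with mean and SD of 4 mice as bars and LH mice 3 and 4 as open points. The share of the 1620-residue Dnmt1 row has means of 48.1%, 59.9%, 68.5% and 80.2% from HC to LH with overlapping groups, the Dnmt3a row ENSMUST00000020991.14 has means of 29.6% to 33.3%, and the Tet1 row is lower in HC (19.5%) than in Ctrl (35.8%).

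Over its named rows, Tet2 gave the largest gene-level difference of the family. Its gene sums were 1.42, 2.39, 2.06 and 3.10 FPKM in HC, 1.10, 1.51, 1.81 and 1.51 in Ctrl, 2.62, 3.63, 2.27 and 1.69 in NLH, with 2.32, 2.26, 1.95 and 1.28 in LH. Ctrl mice were low, and only NLH 4 lay inside their range among the NLH mice. The means were 1.48 ± 0.289 in Ctrl and 2.55 ± 0.815 in NLH (log2 difference 0.71, SE 0.26, 95% limits 0.16 to 1.27). The limma p was 0.0150 (adjusted p = 0.715), and the two-sided exact permutation p was 0.0571, where 0.0286 is the smallest that 4 mice against 4 can give. HC averaged 2.24 ± 0.700, and Ctrl vs. HC had a log2 difference of -0.53 (adjusted p = 1). Leaving out NLH 2 (log2 difference 0.53) or Ctrl 1 (0.59) ended the unadjusted call in NLH vs. Ctrl, and leaving out HC 1 (-0.72) or Ctrl 3 (-0.63) made one in Ctrl vs. HC. LH was at 1.95 ± 0.476, and LH vs. NLH had a difference of -0.35 (95% limits -0.91 to 0.21).

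The 1912-residue Tet2 row ENSMUST00000098603.7 had 0.128, 0.146, 0.443 and 0.288 FPKM in Ctrl and 0.616, 1.41, 0.303 and 0.629 in NLH. In all, 3 NLH mice were above every Ctrl mouse. NLH exceeded Ctrl by 1.19 on the log2 scale (SE 0.47, adjusted p = 0.883), and it lost its unadjusted call without Ctrl 1, without Ctrl 2 (1.05) or without NLH 2 (0.85). ENSMUST00000195913.1, a processed transcript of 484 bases at the 5′ end of the gene, had 0.177 ± 0.188 in Ctrl and 0.745 ± 0.257 in NLH (log2 difference 1.80, exact permutation p = 0.0571) and was called by the test of the methods (adjusted p = 0.556). Its means rest on 1.7 and 6.7 estimated fragments, and limma no longer called it unadjusted without Ctrl 1 (1.39), Ctrl 2 (1.79), Ctrl 4 (1.81), NLH 1 (1.77), NLH 2 (1.68) or NLH 3 (1.69). These were the 2 rows that limma called unadjusted in this comparison. The largest row, the retained intron ENSMUST00000199381.1, had 0.704 ± 0.10 FPKM in Ctrl and 0.768 ± 0.249 in NLH (adjusted p = 1). Its share of the named rows was 48.4% ± 8.0 in Ctrl and 30.6% ± 8.56 in NLH (arcsine difference -0.19, adjusted p = 1, exact permutation p = 0.0857), and that of the 3 retained-intron rows together was 73.3% ± 16.3 and 42.4% ± 5.59. In this comparison the share of the largest row was called unadjusted only in a fit of these 2 groups alone (adjusted p = 0.550), and over the whole locus its difference was -0.02. Such a fit also called it in Ctrl vs. HC (0.15). In LH vs. NLH it was called without LH 1 (0.25) or LH 2 (0.26), while the difference was 0.03 without LH mice 3 and 4. There ENSMUST00000195913.1 was likewise called without LH 1 (log2 difference -2.05) or LH 2 (-2.13), but was at -0.23 without LH mice 3 and 4.

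Beside its 6 named rows the Tet2 locus held 3 assembled rows with no gene name, which carried 60.1% of the FPKM of the locus. MSTRG.47073.1 had 1.45 ± 0.138 FPKM in Ctrl and 1.52 ± 0.115 in NLH, and MSTRG.47073.6 had 1.69 ± 0.270 and 1.54 ± 0.151. The third, MSTRG.47073.4, was low, with 0.161 ± 0.131 FPKM in Ctrl and 0.00108 ± 0.00148 in NLH (limma adjusted p = 0.994). With all rows of each locus summed, an alternative added after the data were seen, the log2 difference of Tet2 in NLH vs. Ctrl was 0.22 (SE 0.13, adjusted p = 0.907) and that of Mbd2 in Ctrl vs. HC 0.21 (adjusted p = 1). Neither passed an unadjusted p of 0.05, and the count of members went to 0 in both comparisons. Assembled rows held 82.5% of the FPKM at the Mbd1 locus, 33.7% at Mbd3, 15.9% at Dnmt1, 11.8% at Mbd2 and 6.19% at Dnmt3a. Their coordinates are not in the table used here.

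**Figure D4:**
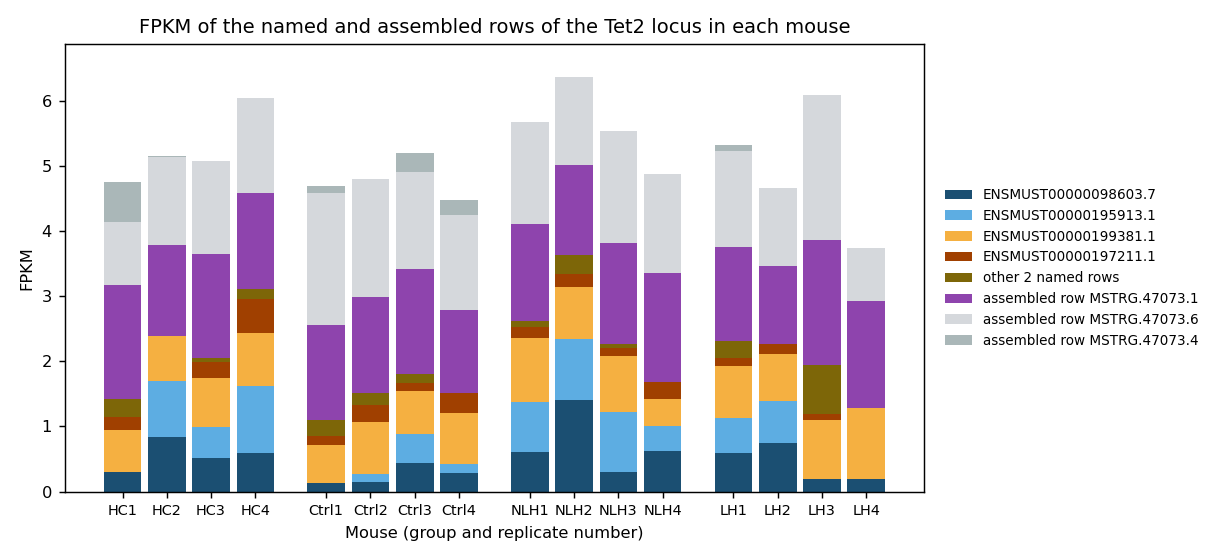
FPKM (vertical axis, stacked from 0) of the named and the assembled rows of the Tet2 locus in each of the 16 mice (horizontal axis). The named coding row ENSMUST00000098603.7 and the short row ENSMUST00000195913.1 are thin in Ctrl and thicker in NLH, while the assembled rows MSTRG.47073.1 and MSTRG.47073.6 keep similar heights in both groups.

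In the share of ENSMUST00000197211.1, a retained intron of Tet2, all 4 LH mice lay below all 4 Ctrl mice, with 5.92, 6.60, 5.10 and below 0.001% against 12.5, 16.9, 6.92 and 20.7%. The limma adjusted p was 0.444, and the exact permutation p was at its smallest, 0.0286. The means were 4.40% ± 3.00 and 14.3% ± 5.93, and the NLH mice had 6.49, 5.58, 4.92 and 15.8%. The difference of -0.20 on the arcsine scale was -0.13 without LH mice 3 and 4 (adjusted p = 0.819). It lost its unadjusted call there and without Ctrl 1 (-0.20), Ctrl 2 (-0.18), Ctrl 4 (-0.17), LH 3 (-0.21) or LH 4 (-0.14) alone. As a share of the whole locus with its assembled rows, an alternative added after the data were seen, the difference was -0.09 and was not called (adjusted p = 0.596). The other 3 shares called unadjusted in LH vs. Ctrl belonged to Mbd rows described below.

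Among the readers, Mbd2 had 4.71, 5.50, 4.69 and 4.51 FPKM in HC and 6.97, 5.19, 6.84 and 6.00 in Ctrl, where only Ctrl 2 lay inside the HC range. The means were 4.85 ± 0.439 and 6.25 ± 0.826 (log2 difference 0.35, SE 0.15, 95% limits 0.04 to 0.66). The limma p was 0.0279 (adjusted p = 1) and the exact permutation p was 0.0571. The unadjusted call was lost without HC 1 (log2 difference 0.34), HC 3 (0.34), HC 4 (0.32), Ctrl 1 (0.30) or Ctrl 3 (0.31). NLH mice had 5.20, 6.06, 6.81 and 4.88 FPKM and LH mice 5.45, 6.73, 5.10 and 4.44, with differences to Ctrl of -0.12 (95% limits -0.43 to 0.19) and -0.21 (-0.52 to 0.10). Without LH 2 the latter was -0.31 and passed unadjusted (adjusted p = 0.304).

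Mbd2 is mainly 1 row, ENSMUST00000074058.10, which encodes 414 residues and was the largest in all 16 mice with a mean of 4.38 FPKM. The retained-intron row ENSMUST00000133889.1 had 0.644, 0.728, 0.267 and 0.441 FPKM in HC and 0.804, 0.702, 0.814 and 0.943 in Ctrl. Ctrl 2 lay inside the HC range and the other Ctrl mice above it. The test of the methods called it in Ctrl vs. HC (adjusted p = 0.731) and, at 0.618 ± 0.113 FPKM in NLH, in NLH vs. Ctrl (adjusted p = 0.671). The exact permutation p was 0.0571 in each, and limma called neither (adjusted p = 1). By the rule of the study's methods a row called in either of these was not considered further for LH.

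A second retained-intron row of Mbd2, ENSMUST00000128555.1 with 494 bases, gave the smallest limma p of the family. It measured 1.40, 0.193, 0.803 and 0.277 FPKM in Ctrl and 0.969, 0.396, 0.381 and 0.245 in NLH, and all 4 LH mice were below 0.001. In HC it was likewise below 0.001 in 3 mice and at 1.04 in HC 3, so the low level was not particular to LH. The limma adjusted p was 0.218 against Ctrl and 0.378 against NLH, and the exact permutation p was 0.0286 in both. The measured levels equal a mean of 6.2 fragments in Ctrl, 4.4 in NLH, 2.4 in HC and 0.0 in LH, and only 63 bases of the row lie in no other row of the gene. Of 59390 transcripts with a mean of at least 0.1 FPKM, 892 (1.5%) likewise were above 0 in every Ctrl and NLH mouse and at most 0.001 in every LH mouse. Without LH mice 3 and 4 the adjusted p was 0.231 in LH vs. Ctrl, and the unadjusted call stayed. Limma also called this row unadjusted in Ctrl vs. HC (adjusted p = 1, exact permutation p = 0.286), as it did ENSMUST00000050826.13 of Tet1. The call of the Mbd2 row was lost without HC 1, HC 2 or HC 4 (log2 difference 1.47 in each), Ctrl 1 (1.34) or Ctrl 3 (1.58). With 1 mouse left out its difference ran from 1.34 to 2.64. Without HC 3 its share was also called unadjusted (arcsine difference 0.31, limma adjusted p = 0.590).

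The 249-residue Mbd2 row ENSMUST00000114946.3 was at most 0.229 FPKM in any mouse and below 0.001 in all LH mice, in HC 1 and in NLH 1. It was called by the test of the methods in LH vs. Ctrl (adjusted p = 0.301, exact permutation p = 0.0286) and also against NLH (adjusted p = 0.798, exact permutation p = 0.143), on 2.7 estimated fragments per mouse in Ctrl and 1.5 in NLH. It was the only row called by that test in LH vs. Ctrl, and with ENSMUST00000128555.1 it made up the 2 in LH vs. NLH. The rows that limma called unadjusted were both of these and ENSMUST00000092295.9 of Mbd3 in LH vs. Ctrl, and ENSMUST00000128555.1 and ENSMUST00000092295.9 in LH vs. NLH, all lower in LH.

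Mbd3, which has lost strong binding to methylated CpG, had gene sums of 5.22, 4.45, 5.37 and 5.87 FPKM in HC, 5.19, 5.59, 7.46 and 5.91 in Ctrl, 5.88, 7.41, 5.75 and 6.66 in NLH, with 6.71, 5.57, 7.56 and 5.80 in LH. The groups overlapped and LH vs. NLH had a log2 difference of -0.01 (95% limits -0.30 to 0.29). Its rows differed more than its sum. The 285-residue row ENSMUST00000092295.9, which holds the 32 codons printed in lower case above, had 3.24, 1.72, 3.55 and 4.53 FPKM in HC, 2.28, 4.13, 3.93 and 1.77 in Ctrl, 3.28, 4.16, 3.40 and 2.92 in NLH, with 2.14, 3.47, 0.204 and 0.313 in LH. LH 1 and LH 2 lay within the range of the other groups, and LH 3 and LH 4, the libraries that stood apart, lay far below it.

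The log2 difference of ENSMUST00000092295.9 was -1.81 in LH vs. NLH (SE 0.63, limma adjusted p = 0.448, exact permutation p = 0.114) and -1.56 in LH vs. Ctrl (adjusted p = 0.403, exact permutation p = 0.143). Both unadjusted calls were lost without LH 3 alone (-1.24 and -0.99), and that against Ctrl also without LH 4 (-1.14), Ctrl 2 (-1.39) or Ctrl 3 (-1.41). Without LH mice 3 and 4 the differences were -0.31 (adjusted p = 0.822) and -0.06 (adjusted p = 1). The share of this row in the Mbd3 sum was 53.7% ± 6.75 in NLH, with 25.6% ± 27.8 in LH, where the 4 mice had 31.8, 62.4, 2.70 and 5.39%. The arcsine difference of the share was -0.35 in LH vs. NLH (adjusted p = 0.488, exact permutation p = 0.143) and -0.31 against Ctrl (adjusted p = 0.462, exact permutation p = 0.2). The first call was lost without LH 3 (-0.24), LH 4 (-0.26), NLH 1 (-0.34), NLH 2 (-0.34) or NLH 3 (-0.33). The second was lost without LH 3 (-0.21), LH 4 (-0.23), Ctrl 1 (-0.33), Ctrl 2 (-0.23) or Ctrl 3 (-0.30) and with no filter on the gene sum. Both were lost in a fit of the 2 groups alone, and without LH mice 3 and 4 the differences were -0.07 and -0.03. The 253-residue row ENSMUST00000105349.7 had 3.45 and 4.54 FPKM in LH 3 and LH 4 and 2.43 and 1.88 in LH 1 and LH 2. HC, Ctrl and NLH mice reached up to 2.63, 3.35 and 3.17, and it was the largest Mbd3 row in 1, 2 and 1 of them and in 2 LH mice. The 261-residue row ENSMUST00000105347.1 had 3.57 FPKM in LH 3, 1.55 in LH 1 and 1.21 in HC 3, and at most 0.605 in the other mice. The assembled row of the locus, MSTRG.8011.5, was below 0.001 in LH 4 and at 3.49 to 4.67 FPKM in the other LH mice.

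**Figure D5:**
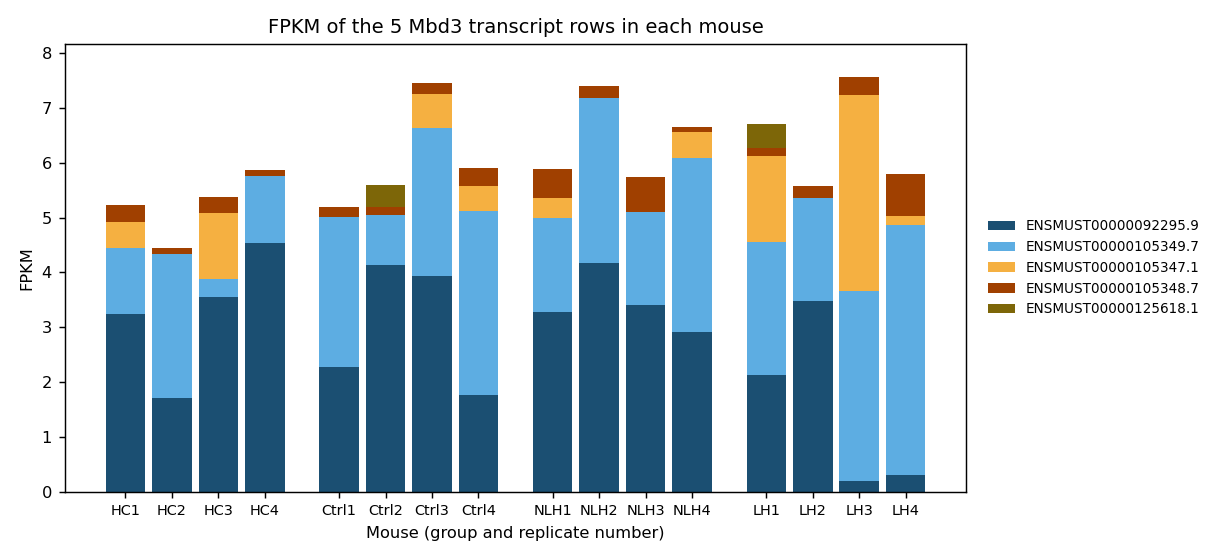
FPKM (vertical axis, stacked from 0) of the 5 named Mbd3 rows in each of the 16 mice (horizontal axis). The dark row ENSMUST00000092295.9 is 0.204 and 0.313 FPKM in LH 3 and LH 4 and at least 1.72 in every other mouse, while the column heights stay between 4.45 and 7.56.

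Mbd1 was carried by 1 named row, ENSMUST00000097530.3, which encodes 588 residues. It had 0.589, 0.496, 0.447 and 0.255 FPKM in HC, 0.594, 0.857, 0.788 and 0.522 in Ctrl, 0.478, 0.657, 0.336 and 0.550 in NLH, and 0.816, 0.514, 0.870 and below 0.001 in LH. Ctrl mice were the highest on average and LH 4 the lowest. Ctrl vs. HC had a log2 difference of 0.55 (95% limits -0.57 to 1.67, exact permutation p = 0.0571), and LH vs. Ctrl -0.69 (-1.81 to 0.43). Without LH 4 the latter turned to 0.07 (adjusted p = 0.943), and LH vs. NLH was 0.46 (adjusted p = 0.629), so the direction against Ctrl rested on that mouse. The unnamed row MSTRG.34726.2 at the same assembled locus had 2.55 ± 0.227 FPKM in HC, 2.57 ± 0.193 in Ctrl, 2.74 ± 0.303 in NLH, with 2.68 ± 0.133 in LH. That locus also holds a row named Cfap53, the neighbouring gene, so that it cannot be told which gene the unnamed row belongs to.

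Other genes of the pathway were read from 2 lists, 25 measured genes of 28 that place, remove or read DNA methylation or supply its cofactors, and 12 measured genes of 13 that form the NuRD complex. None of either list passed an adjusted p of 0.05 by limma in any comparison. Unadjusted, 0 of 25 and 0 of 12 passed in Ctrl vs. HC, 1 of 25 and 1 of 12 in NLH vs. Ctrl, 1 of 25 and 0 of 12 in LH vs. Ctrl, and 0 of 25 and 0 of 12 in LH vs. NLH, where 2.7%, 5.59%, 11.5% and 7.54% of all genes passed. Mbd5, a methyl-CpG-binding domain protein, had 18.3 ± 3.73 FPKM in Ctrl and 26.1 ± 4.39 in NLH (log2 difference 0.52, SE 0.19, adjusted p = 0.712). Chd4, the NuRD ATPase, had 12.6 ± 2.4 and 15.6 ± 1.80 (log2 difference 0.31, adjusted p = 0.781). Mbd6 was at 1.91 ± 0.447 FPKM in Ctrl and 1.2 ± 0.509 in LH (adjusted p = 0.326), with 1.03 and 0.596 in LH 3 and LH 4. Median log2 differences of the 25 genes were 0.04, 0.19, 0.01 and -0.09, and of the 12 genes 0.00, 0.09, 0.07 and -0.06.

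Without LH mice 3 and 4, 989 genes (5.41% of all) passed the adjusted limma test in LH vs. Ctrl and 24.3% passed it unadjusted, while 0 of the 9 members passed either. From the lists, 5 of 25 and 3 of 12 genes passed unadjusted and Gadd45b and Hdac2 adjusted. Gadd45b, a stress-induced gene known for its part in neuronal DNA demethylation, had 1.34 and 2.30 FPKM in LH 1 and LH 2, 0.482 and 1.28 in LH 3 and LH 4, and 1.04, 0.958, 0.660 and 0.932 in Ctrl (log2 difference 0.91, SE 0.24, adjusted p = 0.0428 by limma, with 2 LH mice). With all 4 LH mice its adjusted p was 0.675. Hdac2, a deacetylase of NuRD, had 19.7 and 22.4 FPKM in LH 1 and LH 2, 14.9 and 14.0 in LH 3 and LH 4, and 13.2, 13.9, 15.4 and 14.9 in Ctrl (log2 difference 0.55, SE 0.10, adjusted p = 0.0221 by limma, and 0.435 with all 4 LH mice). Its mean in NLH was 17.3 ± 1.84 FPKM (limma adjusted p = 0.917 against Ctrl). In LH vs. NLH none of the 9 genes and none of the lists passed the adjusted test without these mice, where 0.0383% of all genes did.

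As a description over the 16 mice, the genes most like each of the 7 members with a mean of at least 1 FPKM, thus without Mbd1 and Dnmt3b, in log2 gene sum among 10436 genes past the same limit were Ecsit and Pcdhga3 for Dnmt1 (Pearson r = 0.932 and 0.916), Siglech and Ece2 for Dnmt3a (0.837 and 0.809), Mcoln1 and Rpl21 for Tet1 (0.781 and 0.769), and Aen and Setd2 for Tet2 (0.812 and 0.801). They were Map3k10 and Ddit4 for Tet3 (0.853 and 0.843), Pitpnm2 and Smad3 for Mbd2 (0.900 and 0.841), and Adgrl2 and Mrps21 for Mbd3 (0.835 and 0.817). The mice share group, depth and library, and the best of 10436 values is high by selection, so no p is given.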

How the data were processed

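RNA-seq of total RNA from 16 hippocampi pools, 1 per mouse, had been processed by the authors, who deposited 1 table of FPKM per transcript and mouse. Their methods give the mm10 build, HISAT2 alignment, transcript assembly merged with StringTie and FPKM from Cufflinks, while the submitters' processing notes list STAR 2.42a and StringTie 1.2.3, so the aligner cannot be settled here. The limits of their filter and the strand setting are not given in the sources used here, and no read counts were used, so depth was only estimated. That estimate took FPKM steps at up to 1962 single-transcript loci longer than 2000 bases, with an assumed fragment length of 200 bases. Between 62.2% and 76.8% of values then came within 0.1 of a whole fragment, where 20% would by chance.

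From the deposited FPKM, gene sums and the share of each row in its gene sum were computed, the shares for genes with a mean sum of at least 1. Gene sums and rows were tested with limma 3.58.1 (trend and robust moderation, R 4.3.3) on log2(FPKM + 0.1), and shares on the arcsine of the square root, over all genes, rows or shares and all 16 mice, with Benjamini-Hochberg adjustment and a threshold of 0.05. A fold on this scale understates changes of low values. Beside it stands the test of the study's methods, a two-sided t-test on FPKM per transcript at an unadjusted 0.05. Single values were tested with an exact two-sided permutation test. Tests were checked on simulated data, for rows with a mean of at least 1 FPKM and the same spread in all groups. That check does not cover lower rows or the wider spread of LH. Mice are separate animals, so the spread includes biology.

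Named were all 9 genes, the 2 highest rows of each, in each comparison the 5 rows of at least 0.1 FPKM and the 5 shares of at least 5% with the smallest limma p, the 3 genes of each related list with the smallest p, of which the text prints those past 0.05, and the 2 genes most alike. Gadd45b, Hdac2 and the rows ENSMUST00000111186.7, ENSMUST00000114946.3, ENSMUST00000103151.7, ENSMUST00000105347.1 and ENSMUST00000197118.4 fall outside this rule and were chosen once their values had been seen. The genes and lists were chosen with earlier results of these data known. Transcript classes came from GENCODE vM21, promoter windows from RefSeq, for 7 of the 9 genes. Alternatives were other constants, filters, scalings, tests, a replicate block and leaving out mice, with 2 (assembled rows in the sums and in the shares) added after the data were seen.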

Additional observations from a re-analysis of the deposited data

Results flagged for a closer look

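In groups of 4 mice, a mouse far from the other 3 by Dixon's criterion was found in 13 of 135 groups of values. The criterion flags about 1 in 20 groups of normal values. Rows at or near 0 in 3 mice are not normal, and some tested rows were picked by a small p in these data. The 13 flagged groups are thus not set against chance. At gene level these were the Dnmt3b sum of 0.503 FPKM in NLH 3 (the others at most 0.0485) and the Tet3 sum of 3.87 in NLH 3 (3.49 to 3.55). Among well covered rows they were the 1620-residue Dnmt1 row ENSMUST00000004202.15, at 1.23 in Ctrl 4 against 2.19 to 2.30, the Dnmt3a row ENSMUST00000020991.14, at 2.50 in Ctrl 3 against 1.95 to 2.00, and the 1803-residue Tet3 row ENSMUST00000186548.6, at 0.305 in LH 2 against 0.595 to 0.643.

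The other 8 were rows seen in a single mouse of a group, or nearly so. They were the Mbd2 row ENSMUST00000128555.1 at 1.04 in HC 3, the Dnmt3b rows ENSMUST00000132132.1 at 0.599 in LH 4 and ENSMUST00000140811.1 at 0.181 in HC 2 and 0.383 in NLH 3, the Tet1 row ENSMUST00000173087.1 at 0.232 in Ctrl 3 and 0.321 in LH 2, the Dnmt3a row ENSMUST00000173197.1 at 0.231 in LH 2, and the Tet2 row ENSMUST00000196292.1 at 0.259 in LH 1. In all of these the other 3 mice were below 0.001 FPKM, except for ENSMUST00000132132.1, where another LH mouse had 0.0741.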

How the results depend on the processing

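No member gene passed the adjusted test in any of 622 recomputations of a gene difference, of which 44 changed the sign of an uncalled value. Of 636 recomputed counts 534 kept within 1.5 times their value, and no called value was reversed. Counts at an unadjusted 0.05 moved as follows, and the cause was not tested. Apart from limma on the rows and gene sums without LH mice 3 and 4, no share of all features under the changed setting is given. These counts are thus not set against a background. For the 9 genes in Ctrl vs. HC (1 in the report) median-ratio size factors gave 2 and fitting only the compared groups 3. Locus sums with assembled rows, added after the data were seen, gave 0 there and 0 in NLH vs. Ctrl. For the 40 rows the t-test on log2 values gave 2 in LH vs. Ctrl and limma 3. Unequal variances gave 1 in Ctrl vs. HC and 0 in LH vs. NLH. A mean of at least 1 FPKM gave 1, 0, 0 and 0 in the 4 comparisons, and size factors gave 1 in Ctrl vs. HC and 4 in LH vs. NLH. For shares, no filter gave 0 in Ctrl vs. HC, the compared groups alone 2 in NLH vs. Ctrl, and shares of the locus (added after the data were seen) 1 there. For the related list, a constant of 0.01 gave 2 in NLH vs. Ctrl and 2 in LH vs. Ctrl, size factors 1, 2 and 2 in Ctrl vs. HC, LH vs. Ctrl and LH vs. NLH, the compared groups alone 2 in Ctrl vs. HC and 0 in LH vs. Ctrl, and the t-test 1, 2 and 0 in the first 3 comparisons. For NuRD, size factors gave 2 and a mean of at least 1 FPKM 1 in LH vs. Ctrl, and the compared groups alone and the t-test 2 each in Ctrl vs. HC. Without LH mice 3 and 4, LH vs. Ctrl had 5 related and 3 NuRD genes (1 of each adjusted) and 4 rows, and LH vs. NLH 2, 2 and 1, where 24.3% and 15.3% of all genes passed. These shares are of gene sums, and none is given for the row counts of 4 and 1.

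Leaving out 1 mouse at a time, the unadjusted counts in the order of the 4 comparisons ran over 0 to 1, 0 to 1, 0 to 1 and 0 to 0 for the 9 genes, 0 to 4, 1 to 3, 1 to 3 and 1 to 4 for rows, 0 to 2, 0 to 1, 2 to 6 and 1 to 6 for shares, 0 to 1, 1 to 3, 0 to 4 and 0 to 2 for the related list, and 0 to 0, 0 to 2, 0 to 2 and 0 to 1 for NuRD. Adjusted counts stayed at 0. No share of all features is given for these unadjusted ranges either. Correlations between mice with the same replicate number were low (24 pairs, -0.0575 to 0.0874). Of 16 mice, 7 were best with their own number, and no chance rate was worked out. This cannot exclude a shared batch or cage, and the main fits took no pairing. Limma with a replicate block called 1 row unadjusted in NLH vs. Ctrl and 3 in LH vs. Ctrl, without ENSMUST00000195913.1 in the former, and no longer the shares of ENSMUST00000197211.1 and ENSMUST00000092295.9 in LH vs. Ctrl, but that of ENSMUST00000196292.1. Depth limits Dnmt3b and the short rows, many of which rest on under 10 estimated fragments. Mbd1 had a median of 46.4 and 0.0 in its lowest mouse, and whether depth widened its limits was not tested.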
